A study of Sus scrofa with 36 samples.

Results

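The genes of the cytosolic ribosomal proteins were examined in the adrenal glands of 36 pigs, of which 18 were slaughtered under thermoneutral conditions (TN) and 18 after heat stress (HS). A gene was a member when a probe of the array carried its symbol, that is RPL or RPS with a number, RPLP0, RPLP1, RPLP2 or RPSA, and its brightest probe over all arrays stood for it. The rule gave 74 genes on 280 of the 60305 probes of the array. Probes entered the tests if at least 9 of 18 TN arrays, or 9 of 18 HS arrays, showed a signal well above background, which 45943 probes and 72 members did. The probes named RPL13 and RPS4X were well above background on 0 arrays and have no value under these names. The brightest probe named RPS4 carries the accession of RPS4X, so RPS4X is measured under the name RPS4 and counts in the 74 under both names.

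RNA of each pig was hybridized alone to a 1-colour array, and values are log2 of the normalized intensity, so a difference of 1 is a doubling. All were castrated male growing pigs. There were 6 groups of 6 pigs: Creole (CR), Large White (LW) and their F1 cross, each TN at 24 °C or HS. For HS pigs the array labels give 30 °C, whereas the growth protocol and the methods give 32 °C for up to 5 days. TN pigs were slaughtered before the temperature of the room was raised and HS pigs after it, whole pens at a time, so temperature cannot be told apart from the day of slaughter and the pen. The methods place littermates within a breed, so not all pigs of a breed were unrelated.

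A ribosome is built from a small subunit, which reads the mRNA, and a large subunit, which joins amino acids. Its proteins (RPS for the small subunit, RPL for the large one) are needed in about equal amounts in every cell, and their mRNAs start with a terminal oligopyrimidine (TOP) tract that lets nutrient signalling through mTORC1 control their translation. They are among the most abundant mRNAs of a cell and are often taken as reference genes. In the adrenal gland, the cortex makes steroids and the medulla makes catecholamines, and both rely on continuous protein synthesis.

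The signal of a member is that of a 60-base probe, and several results depend on which probe is read. The sequences that carry these results are shown first, 5′ to 3′ as printed in the scanner files. RPL6 had 15 probes, and those of one stretch of its mRNA behaved differently from the others. In the first pair, capitals mark the 33 bases that both probes share within that stretch. In the second pair, they mark the 37 bases that its last probe shares with the next probe. That probe overlaps most of the last one but shares too few bases with probe 8 to be counted in the stretch.
RPL6 probe 14, by brightness: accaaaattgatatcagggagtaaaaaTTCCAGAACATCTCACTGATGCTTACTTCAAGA
RPL6 probe 8: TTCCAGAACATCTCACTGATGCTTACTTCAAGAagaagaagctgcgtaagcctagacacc
RPL6 probe 4: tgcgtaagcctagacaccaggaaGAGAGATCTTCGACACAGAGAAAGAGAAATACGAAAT
RPL6 probe 5, not counted in the stretch: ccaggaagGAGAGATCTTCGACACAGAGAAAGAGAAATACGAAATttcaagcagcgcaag

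RPS6 had 2 probes with different sequences, which are shown because they gave different breed patterns. No bases are marked.
RPS6, brightest probe: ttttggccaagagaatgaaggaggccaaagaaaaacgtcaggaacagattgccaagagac
RPS6, other probe: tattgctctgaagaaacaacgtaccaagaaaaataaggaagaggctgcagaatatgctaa

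The RPS2 probe is shown beside a brighter probe with no gene symbol, because its first bases are the reverse complement of that probe's. Translated as printed, the brighter probe reads as RPS2 protein, so the RPS2 probe runs opposite to the mRNA. Capitals mark the 32 bases of each that pair in this way.
RPS2 probe: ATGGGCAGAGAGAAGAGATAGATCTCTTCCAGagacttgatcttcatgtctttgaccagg
Brighter probe with no gene symbol: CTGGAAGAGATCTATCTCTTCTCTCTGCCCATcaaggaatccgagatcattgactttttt

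RPL10L, a retrocopy of RPL10, had 1 probe, and the accession given for it was that of RPL10. Capitals mark the 49 bases it shares with a probe named RPL10, so the RPL10L signal cannot be told apart from that of RPL10.
RPL10: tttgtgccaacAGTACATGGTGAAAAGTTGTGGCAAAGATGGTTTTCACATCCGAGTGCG
RPL10L: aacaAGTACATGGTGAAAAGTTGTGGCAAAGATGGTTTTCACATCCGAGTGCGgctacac

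Of the 72 members tested, 41 belonged to the large and 31 to the small subunit. All 72 probes were well above background on all 36 arrays, and 0 were saturated on any array. The mean log2 intensity was over 15 for 55 members, with RPLP1 (18.49) and RPL6 (18.47) the brightest, and 17 members had dimmer probes down to RPS27L (8.02), several of which run opposite to the mRNA. Array intensities do not rank mRNA amounts between probes. Over the array, 42436 to 48060 probes were well above background per TN array and 43585 to 47657 per HS array.

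The question of the HS minus TN comparison was whether up to 5 days of heat changed the expression of ribosomal protein genes. None of the 72 members passed an adjusted p (FDR) of 0.05 with limma, against 0.886% of all probes tested. At an unadjusted p under 0.05 there was 1 member, 1.39%, against 13.4% of all probes. The differences ran from −0.10 for RPS23 to 0.07 for RPL34, 42 were above 0 and 30 below, where 50% of all probes were above 0, and their median was 0.005. This median ran from −0.036 to 0.013 under other processing and from −0.0003 to 0.0114 without single pigs, so its sign was not settled. On its brightest probe, not a single member differed by over 0.1, which 24.3% of all probes did. The median size of the difference was 0.0202 for the members and 0.0533 for all probes, and among probes over 15 in log2 it was 0.0199 for members and 0.0358 for all probes. In HS minus TN, 1 of 9 cortex markers was called (NR5A1, the steroidogenic factor, −0.25 ± 0.06, adjusted p = 0.0254) and 0 of 7 medulla markers, and all 9 and all 7 differences were below 0. Of the red blood cell markers 6 of 6 were below 0 (median −0.16) and of the skeletal muscle markers 5 of 5 were above 0 (median 0.15), with 0 called in either list. These directions were not shared by all breeds. Cortex markers were 6 above and 3 below 0 in Creole, 0 and 9 in Large White and 2 and 7 in cross pigs. Red blood cell markers were 2 above and 4 below 0 in Creole and in cross pigs. Muscle markers were 2 above and 3 below 0 in Creole and in Large White pigs. Adipocyte (2 above and 5 below 0), immune cell (5 and 3), endothelial (4 and 3) and hepatocyte markers (1 and 2) were mixed, with 0 called. The part of these cells in the values of the members was not tested. In whole glands, fewer cells of a type and less RNA per cell cannot be told apart.

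These small differences were measured with small errors in the quantile-normalized values. Quantile normalization gives all arrays the same distribution of values. It can therefore remove part of a shift that many bright probes share, which was not tested. The median distance from the estimate to either end of the 95% interval was 0.0696 for members and 0.119 for all probes. The interval lay within 0.25 either way for 69 members and within 0.15 either way for 64. The 3 others were RPL41, RPS7 and RPS6, whose intervals reached from −0.53 to 0.48, from −0.56 to 0.41 and from −0.33 to 0.22. The median SD between pigs of a group was 0.0932 for members and 0.177 for all probes. Brightness moved with this spread: among probes over 15 in log2 the medians were 0.0862 for the 55 members and 0.126 for all 1410 probes, and in dimmer probes 0.138 and 0.178.

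**Figure D1:**
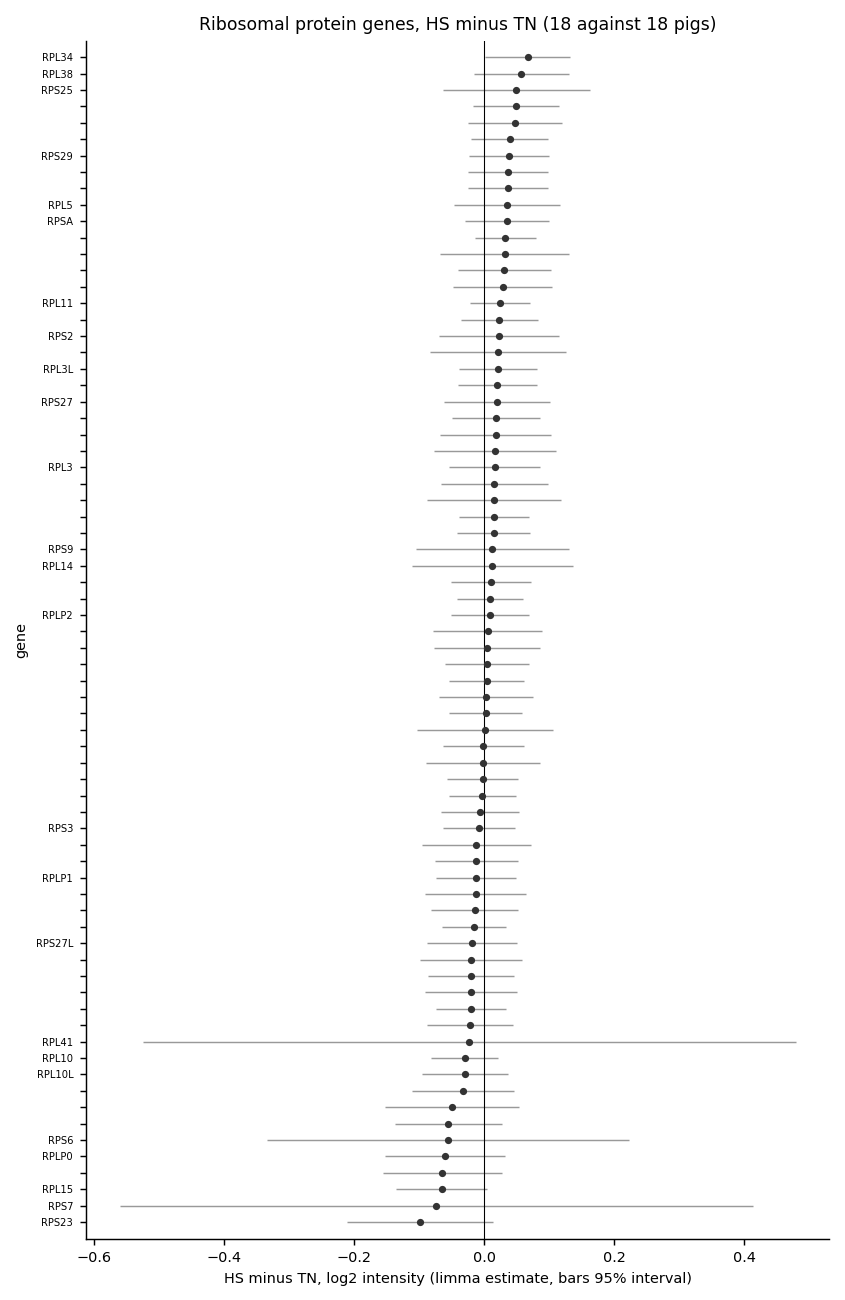
HS minus TN difference in log2 intensity (horizontal axis) for the 72 members tested (vertical axis, ordered by the difference, with the genes of the naming rule and RPL41 labelled), estimated by limma from 18 HS and 18 TN pigs, with 95% intervals as bars. All points lie between −0.10 and 0.07, and the bars of RPL41, RPS7 and RPS6 are the widest.

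RPL34, a large subunit protein encoded at chr8:113467779-113472058 (Sscrofa11.1), had the largest rise. Its TN pigs lay between 15.79 and 16.13 with a median of 15.98, and its HS pigs between 15.82 and 16.17 with a median of 16.06. The difference was 0.07 ± 0.03 (SE) and the adjusted p 0.353, with 14 of 18 HS pigs above the TN mean of their breed. The groups overlapped over nearly their whole range.

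RPL38, a large subunit protein linked to translation of Hox mRNAs in mouse embryos, and RPS25, a small subunit protein used by viral internal ribosome entry sites, followed. RPL38 went from a TN median of 16.59 (16.47 to 16.77) to an HS median of 16.67 (16.50 to 16.93), a difference of 0.06 ± 0.04. RPS25 went from a TN median of 16.10 (15.78 to 16.49) to an HS median of 16.16 (15.80 to 16.47), a difference of 0.05 ± 0.06. TN and HS pigs overlapped for both genes.

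RPS23, a small subunit protein of the decoding centre, had the largest fall. Its TN pigs lay between 17.43 and 18.20 with a median of 17.80, and its HS pigs between 17.49 and 18.00 with a median of 17.69. The difference was −0.10 ± 0.06 with an adjusted p of 0.456. By breed it was −0.22 in the cross (adjusted p = 0.340), −0.03 in Creole pigs and −0.04 in Large White pigs. The highest values of RPS23 all came from cross pigs: 4 TN pigs at 17.99, 18.18, 18.03 and 18.20 and 1 HS pig at 18.00. A second RPS23 probe, which shares a run of 29 bases with the first, gave a difference of −0.02 ± 0.03. Over all 8 RPS23 probes the differences ran from −0.14 to −0.02, and their mean was −0.06 ± 0.03 (adjusted p = 0.313).

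The next largest falls were those of RPS7, described below with the slides, and RPL15. RPL15 is a large subunit protein, and its TN median was 14.86 (14.73 to 15.11) and its HS median 14.84 (14.62 to 15.01). The difference was −0.07 ± 0.03, lower than the TN mean of the breed in 13 of 18 HS pigs, with an adjusted p of 0.417.

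The stalk of the large subunit, which recruits the GTPases of translation, is formed by RPLP0, RPLP1 and RPLP2. RPLP0 had an HS minus TN difference of −0.06 ± 0.05, RPLP1 of −0.01 ± 0.03 and RPLP2 of 0.01 ± 0.03. RPLP1 was 18.49 ± 0.08 in TN and 18.48 ± 0.08 in HS pigs (SD, n = 18 each). RPL5 and RPL11, which bind 5S rRNA and can block MDM2 and so stabilise p53, differed by 0.04 ± 0.04 and 0.02 ± 0.02. RPSA, also known as the laminin receptor, differed by 0.04 ± 0.03. These 6 genes had adjusted p values between 0.616 and 0.938.

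Paralogues with restricted expression were read with their common partners. RPL3L, known from heart and skeletal muscle, differed by 0.02 ± 0.03 and its common partner RPL3 by 0.02 ± 0.03. The RPL3L probe had a mean of 16.88 and the RPL3 probe one of 14.83. Whether the RPL3L probe reads RPL3L mRNA alone was not tested. The probes of RPS27L, a p53 target, and RPS27 differed by −0.02 ± 0.03 and 0.02 ± 0.04, but the reverse complement of each translates into the protein, so both run opposite to the mRNA. RPL10L and RPL10 both differed by −0.03, with SE of 0.03 each. TN and HS pigs of all 6 overlapped.

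The mean deviation over the 72 members gives 1 value per pig. It was −0.0008 ± 0.0436 in TN and 0.0008 ± 0.0499 in HS pigs (SD, n = 18 each). The group means ran from −0.0241 in TN Large White to 0.0152 in TN cross pigs, and the groups overlapped. The arrays lay on 5 slides, each with pigs of both temperatures. The 4 arrays of slide 1 had the lowest mean, −0.0756, and the other slides lay between −0.0002 and 0.0198. Within slides 1 to 5 the HS minus TN difference of this mean was −0.0568, 0.0326, −0.0078, 0.0034 and 0.0070, so it had no common direction.

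**Figure D2:**
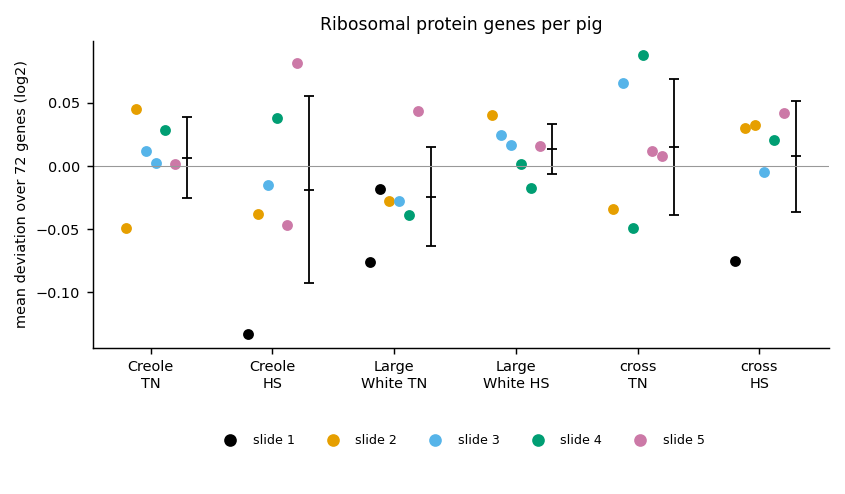
Mean deviation in log2 intensity of the 72 members from their own averages (vertical axis) for each of 36 pigs (points, coloured by slide) in 6 groups (horizontal axis), with mean and SD beside the points. The lowest pig, an HS Creole pig at −0.133, and the next lowest, at −0.0760 and −0.0753, were all on slide 1.

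The RPL6 probes gave the largest HS minus TN differences among the 274 member probes tested, and were picked out after their values were seen. RPL6 is a large subunit protein that is also recruited to DNA damage. Its brightest probe, by which it counts as a member, had a TN median of 18.49 (18.27 to 18.62) and an HS median of 18.49 (18.29 to 18.58). The difference was −0.001 ± 0.031. In contrast, the 9 probes that share at least 15 bases with probe 8 shown above had differences between −0.51 and −0.13. These probes overlap and are not independent measurements. The other 6 RPL6 probes lay between −0.03 and 0.01. The mean over all 15 RPL6 probes differed by −0.14 ± 0.06 (limma, adjusted p = 0.311).

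Probe 14 had the largest difference, −0.51 ± 0.19. Its TN pigs lay between 13.40 and 14.58 with a median of 14.31, and its HS pigs between 12.03 and 14.51 with a median of 13.73. Of all 36 pigs, 4 lay below 13, all of them HS, at 12.03 and 12.76 in Large White and 12.68 and 12.33 in the cross. Of these, 3 were on slide 4 and 1 on slide 5, and the next lowest included TN and HS pigs of slide 1, at 13.21 (HS), 13.40 (TN) and 13.44 (HS). In the same 4 pigs probe 5, which shares 37 bases with the last probe of the stretch, lay at 16.31, 16.20, 16.34 and 16.41, within the range of its TN pigs (16.09 to 16.48). The difference of probe 14 was −0.87 in cross, −0.49 in Large White and −0.16 in Creole pigs. Adjusted p values of the 9 probes were between 0.204 and 0.418, and 7 had an unadjusted p under 0.05. Thus none of the RPL6 probes was called, as was none of the 274 member probes, of which 12, 7 of them these RPL6 probes, had an unadjusted p under 0.05, against 13.4% of all probes.

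Heat responses were also estimated separately for each breed. In Creole pigs 0 members were called, against 0% of all probes. Large White pigs gave 0 members, against 0.0109%, and cross pigs 0 members, against 0%. At an unadjusted p under 0.05 there were 0, 2 and 1 members, in this order of breeds, and 2, 0 and 2 with the slide as a block. The 2 in Large White were RPL12, of the stalk base (0.11), and RPL34 (0.13), both with an adjusted p of 0.776. With the slide as a block they were at 0.09 and 0.08. The median over the 72 members was −0.0165 in Creole pigs (28 above and 44 below 0), 0.0271 in Large White pigs (51 and 21) and 0.0148 in cross pigs (42 and 30). Slide 1, where the members were lowest, held 2 TN and 0 HS Large White pigs, and with the slide as a block the Large White median was 0.0102. With median centring the cross median was −0.0782, so its direction turned. Without single pigs the medians ran from −0.0312 to 0.0004 in Creole, from 0.0074 to 0.0403 in Large White and from −0.0028 to 0.0226 in cross pigs, so the sign turned in Creole and in the cross. The interaction of breed and temperature called 0 members and 0% of all probes, the lowest adjusted p was 0.982, and 1 member (RPL12) had an unadjusted p under 0.05 against 4.21% of all probes.

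Breeds were compared next. The F test among breeds called 3 members, RPS3, RPS2 and RPS9, which is 4.17% against 10.4% of all probes. Large White minus Creole called 5 members, 6.94% against 11.3% of all probes: 1 was higher in Large White (5.89% of all probes were) and 4 were lower (5.38%). At an unadjusted p under 0.05 there were 15 members, 20.8% against 24.2%. All 5 are named for the small subunit, and for RPS2 and RPS9 the probe runs opposite to the mRNA, which leaves RPS3, RPS25 and RPS29 as mRNA measurements. The median over the 72 members was −0.001.

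RPS3, which lies at the mRNA entry site of the small subunit and also acts in DNA repair, is encoded at chr9:9612939-9630404. Creole pigs lay between 17.98 and 18.21 with a median of 18.05, cross pigs between 18.00 and 18.28 with a median of 18.16 and Large White pigs between 18.14 and 18.29 with a median of 18.19. All 12 Large White pigs were above the Creole mean, and 10 of 12 Creole pigs were below every Large White pig. The difference was 0.13 ± 0.03 (limma, adjusted p = 0.00698), but 0.07 (adjusted p = 0.556) with the 75th percentile of the processed signal as the scale. Of its 3 other probes, at 0.12, 0.11 and 0.07, the first was called (adjusted p = 0.0169).

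RPS2, next to the mRNA entry channel, is encoded at chr3:39996179-40003110. Creole pigs lay between 9.11 and 9.60 (median 9.35), cross pigs between 8.94 and 9.31 (9.19) and Large White pigs between 8.91 and 9.25 (9.16). All 12 Large White pigs were below the Creole mean. The difference was −0.20 ± 0.06 (adjusted p = 0.0167). As this probe runs opposite to the RPS2 mRNA, its difference is not one of that mRNA. The brighter probe shown above, which matches the mRNA and had a mean of 16.30, differed by −0.15 ± 0.06 (adjusted p = 0.120), and a probe named for the pseudogene RPS2P32 by −0.12 ± 0.05 (adjusted p = 0.112).

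RPS9, a small subunit protein needed early in its assembly, is encoded at chr6:55920930-55927280. Creole pigs lay between 10.64 and 11.15 (median 10.90), cross pigs between 10.35 and 11.04 (10.76) and Large White pigs between 10.43 and 10.92 (10.65). The breeds overlapped, with 11 of 12 Large White pigs below the Creole mean. The difference was −0.25 ± 0.07 (adjusted p = 0.0178). RPS9 had this probe alone. Its reverse complement translates into RPS9 protein, so it runs opposite to the mRNA and its difference is not one of RPS9 mRNA.

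RPS25 had a Creole range of 15.90 to 16.44 (median 16.19), a cross range of 15.80 to 16.49 (16.21) and a Large White range of 15.78 to 16.29 (15.99). The difference was −0.21 ± 0.07 (adjusted p = 0.0436), with 11 of 12 Large White pigs below the Creole mean. RPS29, a zinc-binding protein of the small subunit head, had a Creole range of 17.57 to 17.83 (median 17.73), a cross range of 17.51 to 17.73 (17.64) and a Large White range of 17.40 to 17.69 (17.62). It differed by −0.12 ± 0.04 (adjusted p = 0.0255), and all 12 Large White pigs were below the Creole mean. A second RPS29 probe differed by −0.13 (adjusted p = 0.0236) and another by −0.07 (adjusted p = 0.330).

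The direction of these 5 genes was the same within each of the 5 slides, at 0.07 to 0.21 for RPS3 and −0.39 to −0.12 for RPS9. Some of these differences were close to none: −0.01 for RPS29 on slide 5, −0.02 for RPS25 on slide 4 and −0.05 for RPS2 on slide 2. Slide 1 held 2 Large White pigs and 1 Creole pig. With the slide as a block in the fit all 5 were called, with RPL15 (0.14, adjusted p = 0.0171) and RPL24 (0.14, adjusted p = 0.0221) besides, and 6280 of all 45943 probes. Without the 8 arrays of slide 3, however, 0 members were called. Without those of slide 4, RPS25 alone was called, and without the 4 of slide 1, RPS2, RPS9 and RPS25 did not pass. The RPS29 difference was −0.08 (adjusted p = 0.238) without slide 4, and RPS29 did not pass without slide 2 and RPS25 without slide 2 or 5. With median centring, RPS3, RPS25 and RPS29 did not pass.

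**Figure D3:**
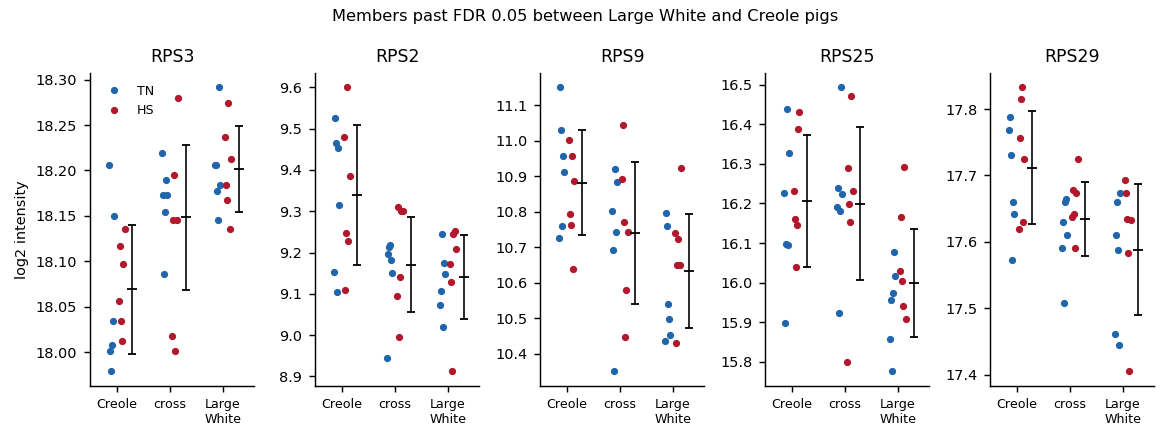
Log2 intensity (vertical axes, a separate scale per gene) of the 5 members past an FDR of 0.05 between Large White and Creole, for 12 pigs per breed (horizontal axes), with TN pigs in blue, HS pigs in red and the mean and SD of the breed beside them. RPS3 is higher in Large White and the other genes are lower, in all of them the breeds overlap, and the RPS2 and RPS9 probes run opposite to the mRNA.

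Markers of the tissue were also called between these breeds, against 11.3% of all probes, 5.89% higher and 5.38% lower. Of 7 medulla markers tested, 4 were higher in Large White (PNMT, CHGA, CHGB and SCG2), and their summed level was 19.03 to 19.45 in Creole and 19.06 to 19.64 in Large White pigs on the log2 scale. Of 9 cortex markers, 3 were lower (STAR, HSD3B1 and FDXR), with sums of 20.35 to 20.51 and 20.19 to 20.40. Of 7 adipocyte markers, 4 were lower and 1 higher, with sums of 12.07 to 13.28 and 11.95 to 12.53. Of the other lists, 1 of 6 red blood cell markers (CA1) and 1 of 7 endothelial markers (KDR) were higher and 1 of 8 immune cell markers (CSF1R) was lower. Their sums were 12.15 to 13.14, 14.71 to 15.11 and 12.92 to 13.59 in Creole and 12.10 to 13.24, 14.81 to 15.23 and 12.91 to 13.46 in Large White pigs, in this order. The part of these cells in the breed differences was not tested.

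Over all tested probes of the members, Large White minus Creole called 15 of 274, from 11 genes, 9 higher and 6 lower, against 11.3% of all probes, 5.89% higher and 5.38% lower. Several were not the brightest probe of their gene. RPS13, which lies where the subunits meet, differed by −0.30 ± 0.06 on its second probe (adjusted p = 0.00115) and by −0.08 ± 0.04 on its brightest (adjusted p = 0.189). On the second probe Creole pigs lay between 16.75 and 17.00, and 10 of 12 Large White and 5 of 12 cross pigs lay below them. RPS3A, which binds near the mRNA exit, had 3 probes called, each 0.12 higher in Large White, whereas its brightest differed by 0.07 ± 0.04.

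The second probe of RPL38 had separate levels. Of the 36 pigs, 28 lay between 12.93 and 13.39 and 8 between 14.70 and 15.03. These 8 were 6 Large White and 2 cross pigs, 4 TN and 4 HS, and 0 were Creole. The difference was 0.87 ± 0.26 (adjusted p = 0.0237), but on the brightest RPL38 probe it was −0.03 ± 0.04 (adjusted p = 0.790).

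RPS6, the small subunit protein phosphorylated downstream of mTORC1, had the largest breed difference of all members, 0.43 ± 0.17 higher in Large White, which did not pass the FDR (adjusted p = 0.0963). Creole pigs lay between 14.78 and 16.73 with a median of 16.38, cross pigs between 16.17 and 16.85 with a median of 16.65 and Large White pigs between 16.42 and 16.76 with a median of 16.66. Below every Large White pig lay 8 pigs, 6 Creole and 2 cross, at 16.20 or less. They came from all 5 slides and from both temperatures (3 TN and 5 HS). The lowest were 2 Creole pigs at 14.78 and 14.90. On the other RPS6 probe shown above, the 8 pigs lay between 15.84 and 16.31 and the other 28 between 16.11 and 16.44, and the breed difference was 0.09 ± 0.05 (adjusted p = 0.202).

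RPL14, a large subunit protein, had the next largest rise in Large White after RPS6, with Creole pigs at 15.85 to 16.36 and Large White pigs at 16.00 to 16.52. The difference was 0.15 ± 0.07 (adjusted p = 0.227).

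**Figure D4:**
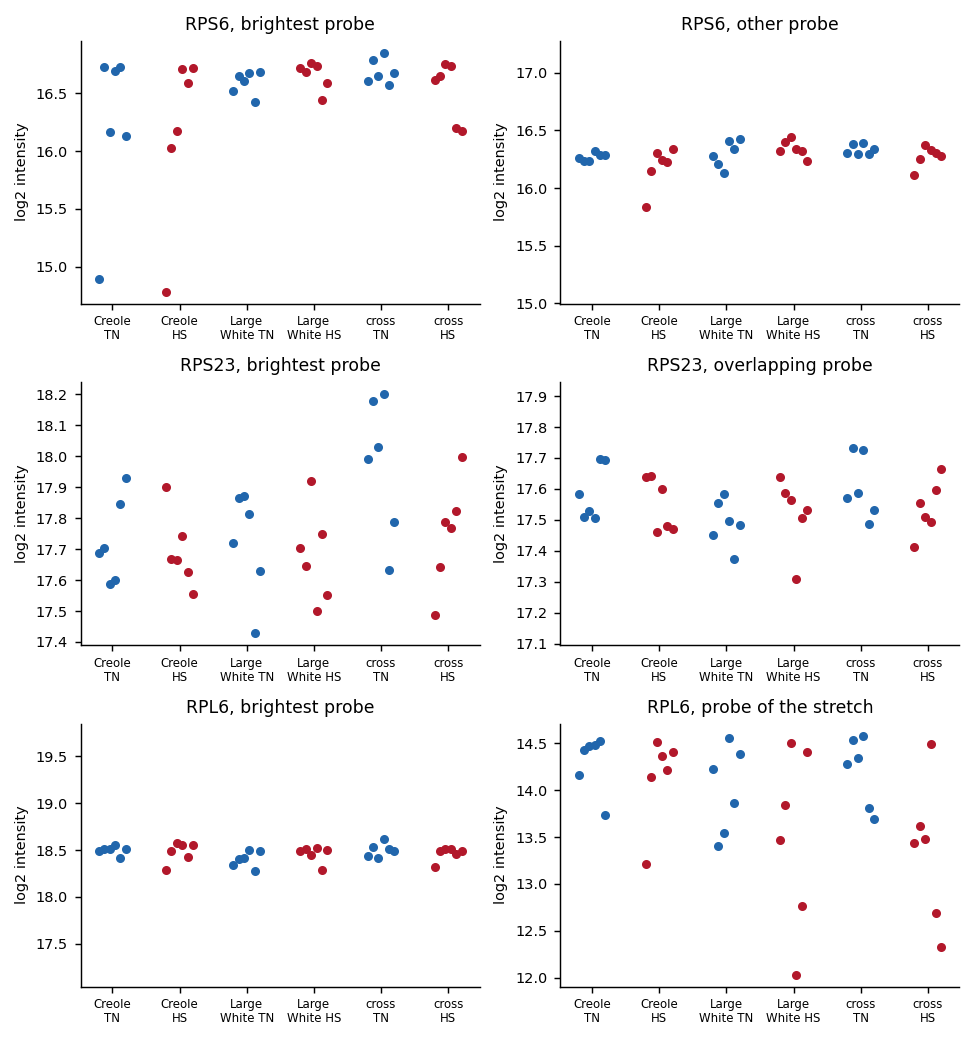
Log2 intensity (vertical axes, of equal span within a row) of the brightest probe (left) and another probe (right) of RPS6, RPS23 and RPL6 for the 6 pigs of each group (horizontal axes), TN in blue and HS in red. The brightest RPS6 probe is low in 2 Creole pigs at 14.78 and 14.90, of which the HS pig is also lowest on the other probe at 15.84, and the RPL6 probe of the stretch is below 13 in 4 HS pigs, while all pigs lie between 18.27 and 18.62 on the brightest.

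Cross minus the mean of both parents called 0 members, against 0.409% of all probes, and 4 (5.56%) had an unadjusted p under 0.05, against 11% of all probes. These were RPS23 (0.16 ± 0.06, but 0.03 ± 0.04 with adjusted p = 0.793 on its overlapping second probe), RPS3A (0.09 ± 0.03), RPS27A, which is made as a fusion with ubiquitin (−0.07 ± 0.03), and RPS27L (−0.09 ± 0.04), with adjusted p values between 0.260 and 0.374. The RPS27L probe, opposite to the mRNA, was 8.06 ± 0.10 in Creole, 8.02 ± 0.10 in Large White and 7.96 ± 0.09 in cross pigs (SD, n = 12 each).

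The slide, which holds 8 arrays, took over 80% of the spread within groups for 2 members, RPL41 and RPS7, against 1.8% of all probes, and over 50% for 8 members against 9.74% of all probes. RPL41, the smallest ribosomal protein, had slide means of 8.86, 9.12, 10.67, 10.71 and 9.93. RPS7, a small subunit protein that also binds MDM2, had slide means of 8.07, 8.46, 9.82, 10.01 and 9.33. Pigs of one slide lay close together whatever their breed and temperature. With the slide as a block, the HS minus TN difference of RPL41 was −0.02 ± 0.04 and that of RPS7 −0.07 ± 0.04 (adjusted p = 0.828 and 0.377), and without the block their SE were 0.25 and 0.24. Another probe of RPS7, named only by an accession, had a mean of 17.37 and a difference of 0.01 ± 0.03. The member probes were dimmer, with means of 9.97 for RPL41 and 9.26 for RPS7. As printed, neither has a reading frame free of stop codons, and whether they read the mRNA was not tested.

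**Figure D5:**
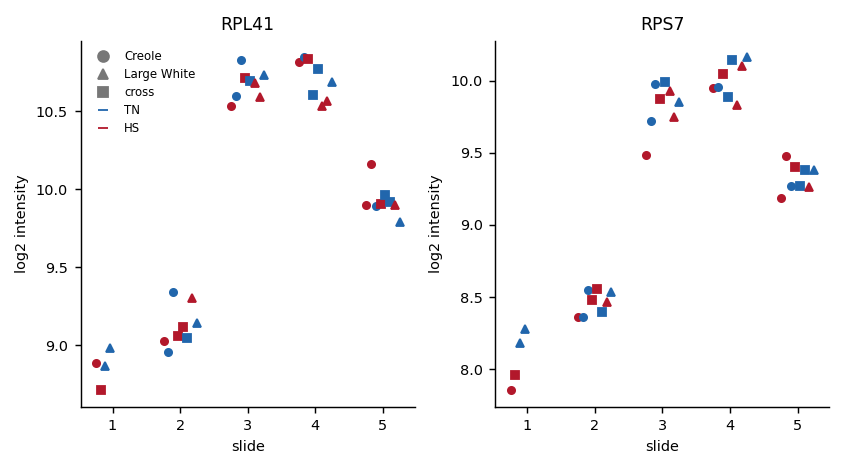
Log2 intensity (vertical axes) of RPL41 and RPS7 on the arrays of each of the 5 slides (horizontal axes), with the breed as the symbol and the temperature as the colour. Slides 1 and 2 lie lowest and slides 3 and 4 highest in both genes.

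The strand read by a probe was compared with its neighbours. Of the 72 probes, 27 overlapped another probe of the array on the same strand alone by at least 30 bases with at least 85% identical, 2 on the opposite strand alone (RPS2 and RPL26) and 43 overlapped none. RPL26, a large subunit protein that binds p53 mRNA, had a mean of 12.03, and the probe opposite to it, which the array names MT-2B and which pairs over 43 of 44 bases, one of 15.35. Its reverse complement translates into RPL26 protein. Among the 43 others were RPS9, RPS27 and RPS27L, whose probes run opposite to the mRNA by the same reading, and several more of the dim probes did so too. These readings rest on general knowledge of the proteins, as no protein reference was used.

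Other genes of translation were read beside the members. Of 22 genes with TOP mRNAs (translation factors and binding proteins), 0 were called in HS minus TN, against 0.886% of all probes. There were 11 above and 11 below 0, with a median of 0.002. Large White minus Creole called 1, against 11.3% of all probes: EIF3F, a subunit of initiation factor eIF3 (0.22 ± 0.07, adjusted p = 0.0374). Of 15 translation regulators tested, such as the mTORC1 and eIF4E pathway genes, 0 were called in either comparison, against 0.886% and 11.3% of all probes.

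Of 28 ribosome biogenesis genes tested, 0 were called in HS minus TN, against 0.886% of all probes, and 5 were above and 23 below 0. At an unadjusted p under 0.05 there were 8, against 13.4% of all probes. The median was −0.05, where it was 4.74e-06 for all probes. Large White minus Creole called 3 of the 28, against 11.3% of all probes: NCL, the nucleolar protein nucleolin (0.92 ± 0.22, adjusted p = 0.00434), RIOK2 (0.16 ± 0.05, adjusted p = 0.0435) and RIOK1 (−0.23 ± 0.07, adjusted p = 0.0198), kinases of small subunit maturation.

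Of 57 mitochondrial ribosomal proteins tested, which translate the mRNAs of the mitochondrial genome, 0 were called in HS minus TN, against 0.886% of all probes. There were 17 above and 40 below 0, with a median of −0.03, and 7 had an unadjusted p under 0.05, against 13.4% of all probes. In Large White minus Creole, 10 were called and all 10 were lower in Large White, where 11.3% of all probes were called and 5.38% were lower. The largest of these differences were those of MRPL51 (−0.31 ± 0.06, adjusted p = 0.00116) and MRPL9 (−0.28 ± 0.04, adjusted p = 1.75e-05). The median of the 57 was −0.05, and that of the 72 cytosolic members −0.001. The difference between the lists was not tested.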

How the data were processed

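RNA from the adrenal glands of 36 pigs, 6 in each of 6 groups, was labelled with Cy3 and hybridized to 1-colour Agilent arrays, 1 per pig on 5 slides. Per the labels and the methods, the authors read each spot with Feature Extraction 10.10.1.1, and the deposited scanner files hold its intensity, not normalized between arrays. The authors also deposited a table of quantile-normalized log2 values for 45348 probes, which chose the brightest probe of each gene and served as an alternative. Columns of samples outside the series numbered 0.

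Control and outlier spots were removed from the scanner data, median intensities were quantile normalized, repeated spots were averaged per probe, and values were put on the log2 scale. Of 45943 probes tested, 89 had a missing spot. Tests used limma 3.58.1 in R 4.3.3 with statmod 1.5.0, with breed and temperature terms, and Benjamini-Hochberg adjustment over all probes tested at 0.05. Pen, slaughter day and parents, which the authors modelled, are not in the labels and were not used. The number of arrays limits the precision. Each pig was 1 replicate.

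Alternatives were the authors' table, the 75th percentile of the processed signal, normexp with an offset of 50, median centring, other filters, the slide as a block, leaving out each slide or pig, array weights, the mean over the probes of a gene and no breed term. The members and lists were chosen with earlier results of these data known. Values are given for members past the threshold in a comparison, the 3 largest rises and 3 largest falls in HS minus TN and in Large White minus Creole, the paralogues, and the stalk, RPSA, RPS6, RPL5 and RPL11. RPL39 and RPL39L, which this rule also lists, had no probe by these names. RPL6, RPL26, RPL41, the second probes of RPL38 and RPS13, RPS3A, RPS27A, RPL12 and RPL24 were named after their values were seen. Gene places are those of RefSeq on Sscrofa11.1, which held 70 of the 72 symbols. The limma fit was checked on simulated data with known HS minus TN changes.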

Additional observations from a re-analysis of the deposited data

Results flagged for a closer look

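Among the genes named by rule, 144 sets of 6 pigs were searched for a single pig far from the others, and 12 were found where chance gives about 1 in 20, that is 7.2. Of these, 5 were pigs on slide 1: the HS Creole pig 1 for RPL10 (17.23, others 17.42 to 17.49), RPL5 (17.57, others 17.90 to 18.00) and RPS6 (14.78, others 16.03 to 16.72), and the HS cross pig 1 for RPL5 (17.71, others 17.92 to 18.03) and RPLP1 (18.29, others 18.45 to 18.50). In TN Large White, pig 5 on slide 4 stood apart for RPL11 (17.68, others 17.49 to 17.55) and RPL5 (17.65, others 17.88 to 17.98), and pig 6 for RPL10L (16.34, others 16.16 to 16.19). TN cross pigs stood apart for RPL10L (pig 4 at 16.41, others 16.17 to 16.25) and RPS2 (pig 1 at 8.94, others 9.15 to 9.22). The HS Large White pig 3 stood apart for RPS2 (8.91, others 9.13 to 9.25) and the TN Creole pig 1 for RPS6 (14.90, others 16.13 to 16.73).

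RPLP1 moved in opposite directions in Large White (0.0687) and in the cross (−0.07): all 6 HS pigs lay above the TN mean of Large White and all 6 below it in the cross. The interaction of breed and temperature for RPLP1 had an adjusted p of 0.982 with limma, so the difference between these breeds did not pass the test. Slide 1, the lowest for RPLP1 (18.35, other slides 18.49 to 18.53), held 2 TN and 0 HS Large White pigs, and with the slide as a block RPLP1 differed by 0.02 in Large White and −0.05 in the cross.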

How the results depend on the processing

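TN and HS pigs were different animals, and no analysis paired by litter was possible because the labels do not give the litter. HS minus TN called 0 members under all 16 alternatives and without any of the 36 pigs, as did the interaction, the cross and the responses within breeds under their 15 alternatives. The median HS minus TN difference ran from −0.036 to 0.013 over alternatives. In the cross it was −0.078 with median centring. Among breeds, 1 member was called with the processed signal, 0 with median centring, 5 and 6 with the slide as a fixed and a random block, 1, 0, 1 and 1 without slides 2, 3, 4 and 5, 6 with the mean over the probes of a gene and 1 to 5 without single pigs. Large White minus Creole called 3 with the processed signal, 2 with median centring, 3, 0 and 1 without slides 1, 3 and 4 (4 or 8 arrays fewer), 10 with the mean over probes and 4 to 6 without single pigs. With the slide as a fixed block, Large White minus Creole called 6280 and the test among breeds 6095 of the 45943 probes. The share of all probes called was not recorded for the other alternatives, so their counts are not read as results about the members. With the mean over probes 10 of 72 were called, so the share of 6.94% in the main fit, against 11.3% of all probes, depended on the probe read. All 5 genes kept their direction, with RPS3 at 0.07 to 0.15, RPS29 at −0.15 to −0.08 and RPS25 at −0.26 to −0.14. Over 15 alternatives, RPS2 and RPS9 passed in 12, RPS3 in 11, RPS29 in 10 and RPS25 in 9. RPS25 passed in 21 of 36 fits without a pig. The cause of these changes was not tested.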
